A study of Mus musculus with 14 samples.

Results

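The genes described here are 31 genes of sterol and fatty acid synthesis, measured in macrophages sorted from injured mouse brain and in monocytes sorted from blood. They comprise the enzymes that build cholesterol from acetyl units, the SREBP transcription factors and the proteins that hold SREBPs in check, a sterol carrier, and the enzymes that make, lengthen and desaturate fatty acids. The list was fixed by symbol, and a probe belonged to it when its RefSeq accession carried one of those symbols. Of the 31 genes, 30 had a named probe and 29 could be tested, among 21977 tested features in all. Idi1 had no named probe, and the probe of Acat2 gave usable spots on 1 Arg1+ brain and 2 post-TBI blood arrays.

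The study hybridised 14 RNA samples to 1-colour Agilent mouse arrays. All mice were males of the YARG strain, aged 12 to 16 weeks, a strain with a fluorescent reporter placed at the gene for arginase-1 (Arg1). Arg1+ brain macrophages (n = 4) and Arg1- brain macrophages (n = 4) were sorted by that reporter 1 day after traumatic brain injury (TBI), made by controlled cortical impact. Blood monocytes came from mice 1 day after TBI (n = 3) and from normal mice without surgery (n = 3). The design text speaks of 4 replicates in each group, and the fourth of each blood group was not analysed here. No sham-operated group was analysed here, so injury and surgery cannot be told apart. The labels number the replicates without saying whether each came from its own animal, and the p-values then measure the spread between these samples, part of which may be technical.

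Cholesterol synthesis starts with the mevalonate steps, passes through farnesyl diphosphate and squalene, and ends with the conversion of lanosterol to cholesterol. SREBPs are made as membrane proteins of the endoplasmic reticulum, where INSIG proteins hold them together with their escort SCAP when sterols are plentiful. When sterols run low, SCAP carries them to the Golgi, they are cut free, and the released fragment switches on genes of sterol synthesis (mainly SREBP2) and of fatty acid synthesis (mainly SREBP1). In macrophages, the same lipid pathways are known to be adjusted when the cells take up membrane debris or are activated.

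SREBP-bound promoters are known to carry a sterol regulatory element beside a box for the factor NF-Y. RefSeq windows of the 250 bases before the annotated start were at hand for 24 of the 31 genes (32 windows, build GRCm38.p6), so they are shown for the 4 genes that were lower in Arg1+ than in Arg1- brain cells and for Hmgcs1, the one member with an exact element core. Capitals mark exact matches, on either strand, to the element core TCACNCCAC and to the NF-Y box CCAAT, which reads ATTGG on the opposite strand. The windows run 5′ to 3′ towards the gene.
Cyp51, chr5:4104698-4104947, minus strand: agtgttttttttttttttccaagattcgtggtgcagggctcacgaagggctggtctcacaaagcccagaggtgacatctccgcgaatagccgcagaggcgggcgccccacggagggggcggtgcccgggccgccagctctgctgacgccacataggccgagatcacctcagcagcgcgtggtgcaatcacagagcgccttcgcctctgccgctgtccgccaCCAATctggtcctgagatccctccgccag
Srebf2, chr15:82147019-82147268, plus strand: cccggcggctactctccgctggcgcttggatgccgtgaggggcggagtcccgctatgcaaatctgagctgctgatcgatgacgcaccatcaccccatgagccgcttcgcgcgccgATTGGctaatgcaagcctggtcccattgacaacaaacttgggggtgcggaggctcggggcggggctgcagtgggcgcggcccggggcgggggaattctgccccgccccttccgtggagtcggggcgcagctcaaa
Fasn, chr11:120824548-120824797, minus strand: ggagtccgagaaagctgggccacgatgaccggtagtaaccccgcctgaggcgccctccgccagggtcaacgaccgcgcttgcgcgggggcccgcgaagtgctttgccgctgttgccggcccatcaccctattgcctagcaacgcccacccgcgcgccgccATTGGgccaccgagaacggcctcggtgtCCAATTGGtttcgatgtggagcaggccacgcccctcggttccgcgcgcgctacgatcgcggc
Elovl6, chr3:129532136-129532385, plus strand: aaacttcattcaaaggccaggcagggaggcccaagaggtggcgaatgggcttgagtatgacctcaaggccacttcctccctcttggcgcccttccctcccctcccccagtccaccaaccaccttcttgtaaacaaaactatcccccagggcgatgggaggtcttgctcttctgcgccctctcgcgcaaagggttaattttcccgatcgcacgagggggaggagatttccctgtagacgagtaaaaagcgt
Hmgcs1, chr13:119690101-119690350, plus strand: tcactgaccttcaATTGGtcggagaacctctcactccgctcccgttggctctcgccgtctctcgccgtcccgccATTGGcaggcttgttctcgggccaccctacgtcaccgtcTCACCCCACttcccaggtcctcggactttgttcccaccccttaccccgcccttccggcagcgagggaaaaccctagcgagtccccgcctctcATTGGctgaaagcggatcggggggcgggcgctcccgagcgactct

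The window of Cyp51 held 1 NF-Y box, whose nearest base lay 25 bases before the start. That of Srebf2 also held 1, 131 bases before the start, and that of Fasn held 3, of which a CCAAT and an ATTGG overlap. No exact match to either motif was found in the window of Elovl6. The element core matched in 1 of the 24 members with a window, Hmgcs1, and in 1.22% of all 27025 mouse genes with a window of this length. An NF-Y box was found in 19 of the 24 members (79.2%) and in 37.5% of all genes with a window. The E-box CACGTG was found in 5 members (Dhcr7, Hsd17b7, Insig1, Sc5d and Scap) and in 6.86% of all genes. These are letter matches and say nothing on whether a factor binds there.

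A level below is the log2 of a gene's signal relative to the 75th percentile of its array, so 0 is that percentile and -4.32 is the lowest value allowed. Between 50.1% and 67.3% of probes were well above background on each array, none was saturated, and the 75th percentile signal lay between 119 and 418 intensity units. Arg1 itself read 6.20, 6.21 and 6.82 on the 3 usable Arg1+ arrays, 2.12 to 4.20 on the Arg1- arrays and -3.90 to -3.13 in blood. Post-TBI blood replicate 4 stood apart. Its correlation with the other arrays of its group was 0.937 and 0.960, and the median level of the 29 genes on it was -0.53 against -0.41 to 0.24 on the other 13 arrays. Members whose call changed without it are named beside their values. The arrays lay on 4 slides. Deviations of arrays of different groups correlated at r from 0.04 to 0.59 within a slide (19 pairs) and from -0.53 to 0.40 across slides (54 pairs). Differences within slides are therefore given too. Of the monocyte and macrophage markers with a probe, 5 of 6, among them Itgam, which encodes CD11b, were above background on every array of both brain groups. Fcgr1, the other one, had spots set aside as outliers on some brain arrays.

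**Figure D1:**
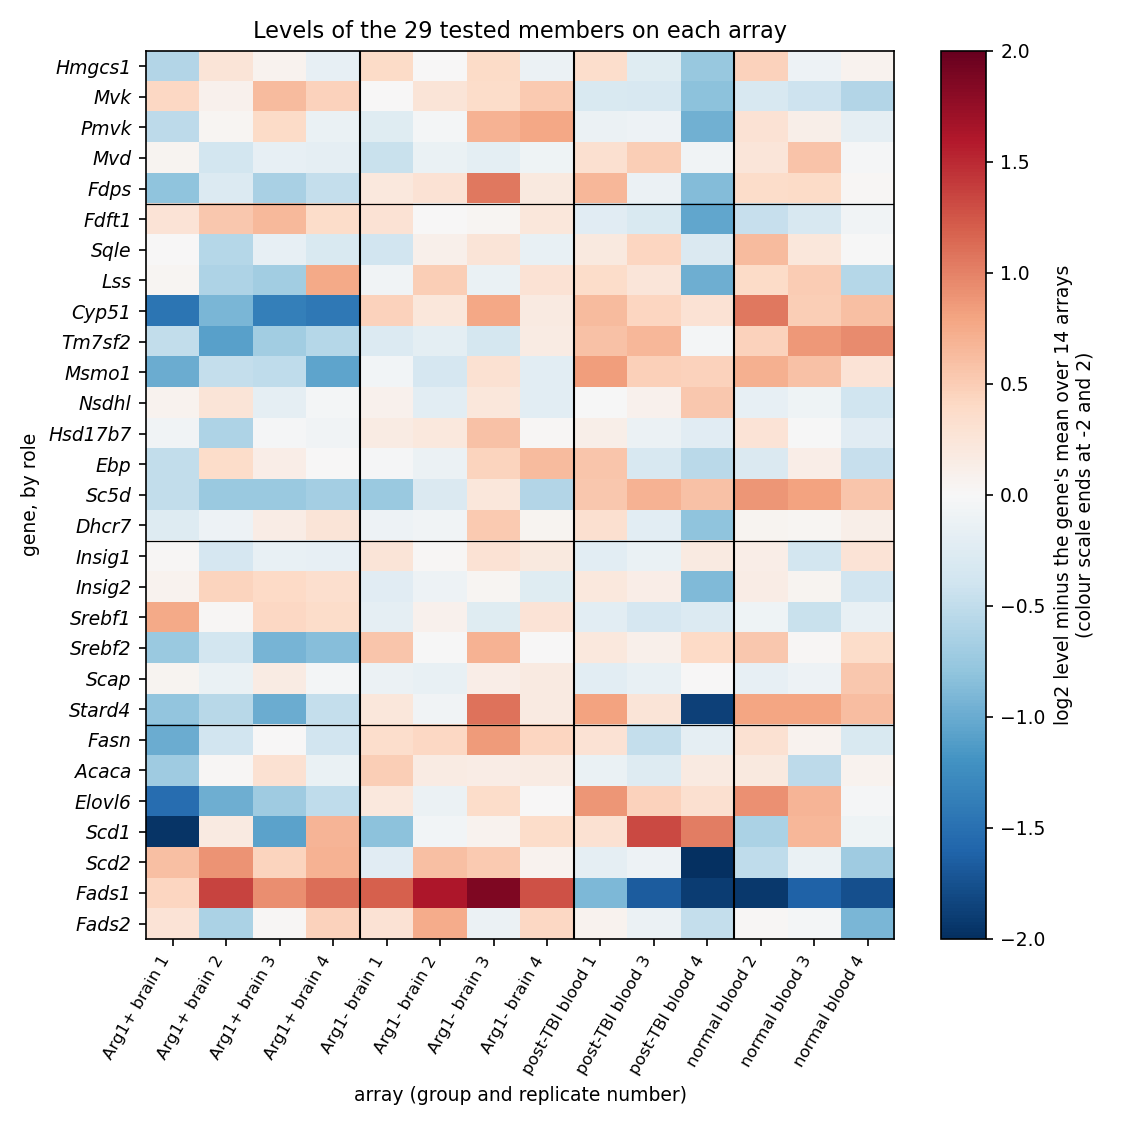
Level of each tested gene on each array as the log2 level minus that gene's mean over the 14 arrays, with genes grouped by role and arrays by group. The row of Cyp51 is darkest blue in the 4 Arg1+ brain columns, Fads1 is red in all 8 brain columns and blue in all 6 blood columns, and the column of post-TBI blood replicate 4 holds the lowest cells of Stard4 and Scd2.

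The first comparison asked how brain macrophages with and without Arg1 differ at day 1. Arg1+ cells had lower RNA of 4 of the 29 genes, Cyp51, Srebf2, Fasn and Elovl6, and higher RNA of 0 at an adjusted p under 0.05 in limma (at an unadjusted p under 0.05, 1 was higher and 9 were lower). Those 4 are 13.8% of the genes tested, beside 5.04% of all 21977 features called in either direction. Of all features, 2.9% were called lower and 2.14% higher. The median difference of the 29 genes was -0.31, beside 0 over all features, and 22 of the 29 differences were below 0; the median stayed below 0 in every setting tried. A lower level in a sorted population can stand for less RNA per cell or for fewer cells of a type that carries it, and these arrays cannot tell them apart. Leaving out post-TBI blood replicate 4, which changes the estimated spread and not the brain levels, brought the count to 7 with Fdps, Msmo1 and Stard4, and without post-TBI replicate 1, or with slide as a block, it was 6 with Fdps and Msmo1. Without Arg1- replicate 1, 3 or 4 or Arg1+ replicate 1 or 2 it was 2, Cyp51 and Srebf2.

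Cyp51, lanosterol demethylase, takes the first methyl group off the sterol ring system. Its level was -1.82, -1.28, -1.73 and -1.80 in Arg1+ replicates 1 to 4 and 0.10, -0.15, 0.41 and -0.19 in Arg1- replicates 1 to 4. In blood it was 0.27, 0.06 and -0.08 in post-TBI replicates 1, 3 and 4 and 0.68, 0.13 and 0.23 in normal replicates 2, 3 and 4. Every Arg1+ array thus lay more than 1 log2 unit below every other array of the study. The fitted difference between Arg1+ and Arg1- cells was -1.70 ± 0.20 (SE; 95% confidence interval -2.12 to -1.28), a 3.25-fold lower level, with an adjusted p of 0.00014. Within the 4 slides the difference was -1.64, -1.83, -1.65 and -1.69. All 3 Cyp51 probes gave a lower level in Arg1+ cells, by -1.27 to -1.70, and the call held in each of the 25 other settings, with the smallest difference (-1.11) after normexp background correction.

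Srebf2 encodes SREBP2, the factor that mainly drives sterol synthesis genes. It read 1.14, 1.52, 0.95 and 1.04 in Arg1+ replicates 1 to 4 and 2.44, 1.88, 2.59 and 1.90 in Arg1- replicates 1 to 4. In post-TBI blood it was 2.10, 1.98 and 2.29, and in normal blood 2.43, 1.92 and 2.25. The Arg1+ arrays were again below all 10 others. The difference from Arg1- cells was -1.04 ± 0.19 (SE; 95% interval -1.45 to -0.63), 2.06-fold lower, with an adjusted p of 0.00497. It was -0.76, -1.49, -0.84 and -1.07 within slides 1 to 4, the 2 probes gave -1.04 and -0.99, and the call held in all 25 other settings.

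Fasn, the fatty acid synthase that makes palmitate, read -1.60, -0.99, -0.60 and -1.00 in Arg1+ cells and -0.26, -0.20, 0.24 and -0.18 in Arg1- cells. Blood lay below all Arg1- arrays and overlapped the Arg1+ arrays, at -0.32, -1.09 and -0.79 after TBI and -0.31, -0.55 and -0.92 in normal mice. The difference between the brain groups was -0.95 ± 0.24 (SE), 1.93-fold lower, with an adjusted p of 0.0328. It was -1.42, -0.34, -0.80 and -1.23 within slides 1 to 4, and the 2 Fasn probes gave -0.95 and -0.86. The adjusted p rose above 0.05 in 7 of 14 limma fits without 1 array, reaching 0.118. These left out any 1 of the Arg1- arrays or Arg1+ replicate 1, 2 or 4. Over all 14 such fits the difference ran from -1.10 to -0.76. The call was also lost in 4 of 11 other settings, among them normexp background correction (-0.53, adjusted p = 0.0694).

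Elovl6 lengthens palmitate to stearate. It read -3.38, -2.82, -2.56 and -2.35 in Arg1+ cells and -1.64, -1.97, -1.48 and -1.84 in Arg1- cells, and it was well above background on 3 of the 4 Arg1+ arrays. In blood it was -0.97, -1.38 and -1.53 after TBI and -0.94, -1.17 and -1.87 in normal mice, so the Arg1+ arrays were below all others here too. The difference was -1.05 ± 0.27 (SE), 2.06-fold lower, with an adjusted p of 0.0351, and -1.54, -0.92, -0.38 and -1.34 within slides 1 to 4. It shrank to -0.21 (adjusted p = 0.677) after normexp correction, 1 of 4 among 11 other settings in which the call was lost. The call was also lost in 7 of 14 limma fits without 1 array, with an adjusted p up to 0.114. These left out Arg1- replicate 1, 3 or 4, Arg1+ replicate 1, 2 or 3, or post-TBI blood replicate 3. Over all 14 such fits the difference ran from -1.19 to -0.84.

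**Figure D2:**
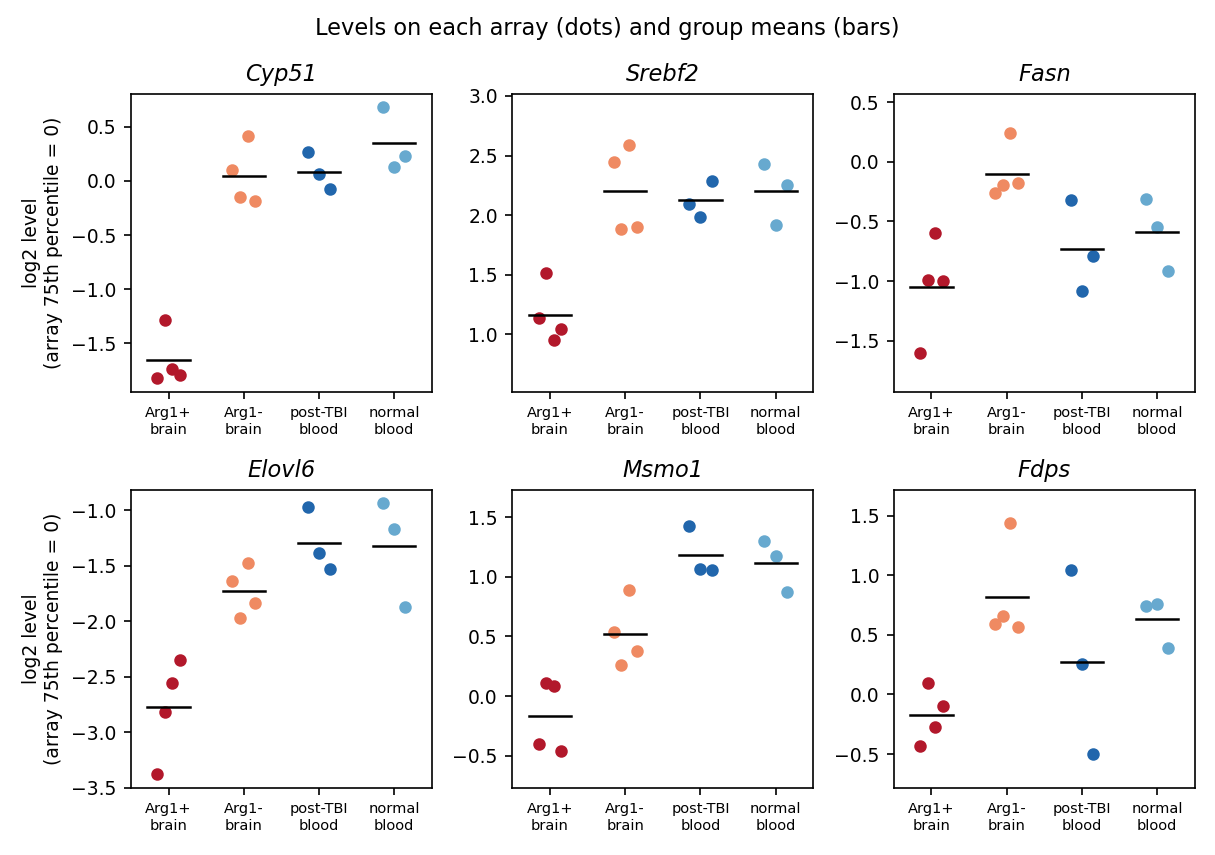
Log2 level on each array (dots) and group mean (bars) of Cyp51, Srebf2, Fasn, Elovl6, Msmo1 and Fdps in the 4 groups. The 4 Arg1+ dots lie below the 4 Arg1- dots in each panel, and for Cyp51, Srebf2, Elovl6 and Msmo1 also below all 6 blood dots.

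Of the 5 mevalonate genes tested, none was called, with differences from -0.99 to 0.10, and Fdps was the one with an unadjusted p under 0.05. Fdps, which makes farnesyl diphosphate, lay furthest from 0: its Arg1+ arrays spanned -0.43 to 0.10 and its Arg1- arrays 0.57 to 1.44, without overlap, and the difference of -0.99 ± 0.28 (SE) had an adjusted p of 0.0586. The value within slides was -1.00, -0.86, -0.76 and -1.34. Hmgcs1 (-0.27), which makes the precursor of mevalonate, Pmvk (-0.36), Mvk (0.10) and Mvd (0.06), which carry out the next steps, overlapped between the groups.

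Among the 11 genes from squalene to cholesterol, Cyp51 was called and 9 of 11 differences were below 0. Msmo1, the methylsterol oxidase that acts soon after Cyp51, read -0.41, 0.11, 0.08 and -0.46 in Arg1+ cells and 0.54, 0.26, 0.89 and 0.37 in Arg1- cells. These arrays did not overlap, and the difference of -0.69 ± 0.19 (SE) had an adjusted p of 0.0524, with -0.78, -0.46, -0.72 and -0.78 within slides. Tm7sf2, a sterol reductase (-0.55, adjusted p = 0.222), and Hsd17b7, a ketosteroid reductase (-0.44, adjusted p = 0.301), also did not overlap between the groups and were not called. The other 7 overlapped: Sc5d at -0.31, Lss at -0.27, Ebp at -0.23, Sqle at -0.22, Dhcr7 at -0.10, Nsdhl at 0.05 and Fdft1 at 0.32. The 2 probes of Fdft1, squalene synthase, disagreed in sign (-0.37 and 0.32).

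Among the regulators, Srebf2 was the one called. Srebf1, which encodes SREBP1, read 0.61, -0.13, 0.26 and 0.22 in Arg1+ cells and -0.34, -0.07, -0.39 and 0.11 in Arg1- cells, which overlap, and the difference of 0.41 had an adjusted p of 0.252. Scap, the escort, read 0.36, 0.18, 0.47 and 0.27 against 0.19, 0.15, 0.44 and 0.48, a difference of 0.00 with a 95% interval of -0.37 to 0.37. Insig1, itself a known SREBP target, read 1.78, 1.42, 1.62 and 1.59 against 2.02, 1.78, 2.05 and 1.95, a difference of -0.35 (adjusted p = 0.268). Insig2, the other anchor, read -1.41, -1.05, -1.09 and -1.15 against -1.71, -1.59, -1.45 and -1.73. Its groups did not overlap, with Arg1+ cells above, but the difference of 0.45 was not called (adjusted p = 0.386). Stard4, a carrier of cholesterol between membranes, spanned -3.20 to -2.69 in Arg1+ and -2.29 to -1.12 in Arg1- cells, a difference of -1.06 ± 0.44 (SE; adjusted p = 0.214), and all 3 of its probes were below 0 (-1.06 to -0.79). Without post-TBI blood replicate 4, on which Stard4 read -4.08, its adjusted p was 0.0209.

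Fasn and Elovl6 were called among the 7 fatty acid genes, and 6 of 7 differences were below 0. Acaca, which makes the malonyl unit that Fasn adds, was at -0.37 (adjusted p = 0.432), with its 4 probes running from -0.37 to 0.12. The desaturases Scd1 (-0.43), Fads1 (-0.53) and Fads2 (-0.31) and Scd2 (0.42) all overlapped between the groups and were not called.

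**Figure D3:**
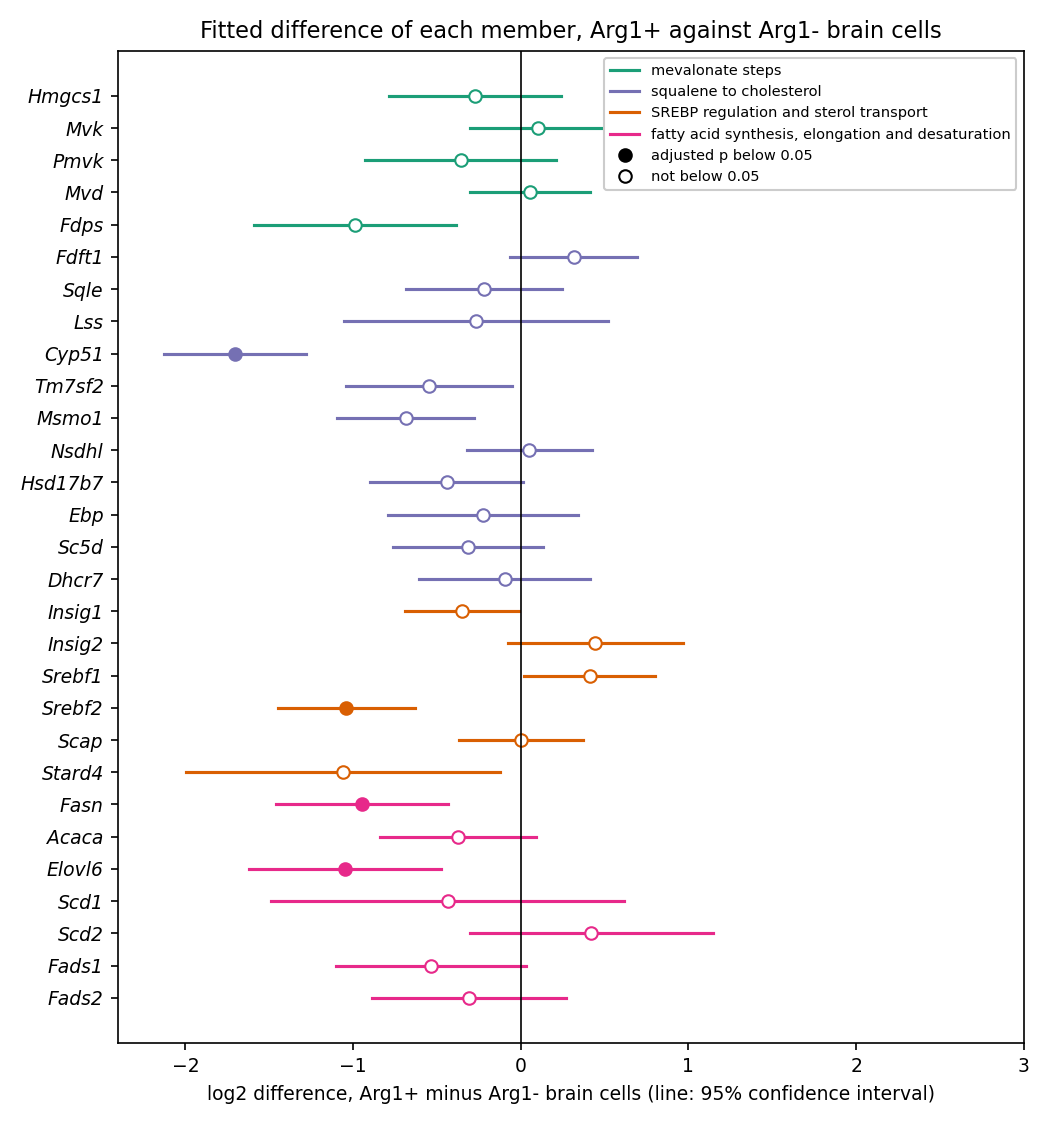
Fitted log2 difference of each of the 29 genes, Arg1+ minus Arg1- brain cells, with its 95% confidence interval, coloured by role and filled where the adjusted p was below 0.05. The 4 filled points, Cyp51, Srebf2, Fasn and Elovl6, lie between -1.70 and -0.95, and 22 of the 29 points are left of 0.

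Other genes of the pathways gave the setting. Lbr, a sterol reductase of the nuclear membrane, was lower in Arg1+ cells (-0.88, adjusted p = 0.0178). Of 25 further fatty acid genes, 1 was lower, Acss2, which makes acetyl-CoA from acetate (-1.04, adjusted p = 0.0222), and none was higher (median 0.07). Acss2 was above background on 1 of 4 Arg1+ arrays, with a mean level of -4.16 there, close to the lowest value allowed, so the size of its difference depends on that floor. Of 13 genes of sterol excess and cholesterol handling, 2 were higher and 1 was lower (median 0.29). The higher ones were Abca1, the cholesterol exporter (1.11, adjusted p = 0.00575, on 3 usable Arg1+ arrays), and Lipa, the lysosomal lipase (0.84, adjusted p = 0.00505). Cyp27a1, which makes an oxysterol, was lower (-1.02, adjusted p = 0.00892).

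Markers of some other cells also differed between the brain groups. Of 8 neutrophil markers, 6 were lower in Arg1+ cells, and their summed level (in multiples of the array's 75th percentile, over the 7 with usable spots on every array) was 1.44 to 7.43 in Arg1+ and 19.9 to 109 in Arg1- cells. Elane, a neutrophil elastase, was above background on no Arg1+ array. Of 5 dendritic cell markers tested, 4 were lower, with a summed level of 0.322 to 0.448 against 3.71 to 5.38, and Kmo was above background on no Arg1+ array. Of 5 proliferation markers tested, 4 were lower, with a summed level of 0.776 to 1.23 against 1.38 to 2.62, and Ccnb1, Cdk1 and Rrm2 were above background on no Arg1+ array. Of 4 natural killer cell markers and of 6 monocyte and macrophage markers, 1 each was lower. Going the other way, 1 of 4 astrocyte markers tested and 1 of 5 neuron markers were higher in Arg1+ cells. None of the microglia, oligodendrocyte, endothelium, T cell or B cell markers was called in either direction. The part of any of these cells in the lower sterol and fatty acid genes was not tested.

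The second comparison set blood monocytes 1 day after TBI against those of normal mice without surgery. Of the 29 genes, 0 were called by limma, 0 passed an unadjusted p under 0.05, and the lowest adjusted p was 0.785. Calls were rare overall: 0.15% of all features, 0.109% higher and 0.041% lower after TBI. Of the 33 called features, 27.3% were lower, and on the authors' deposited log2 values the share was 40% of 20. The median of the 29 differences was -0.12, with 21 of 29 below 0, and 0.01 without post-TBI blood replicate 4. Stard4 had the difference furthest from 0, at -1.42, -1.95 and -4.08 in post-TBI replicates 1, 3 and 4 against -1.42, -1.43 and -1.59 in normal replicates 2, 3 and 4, a difference of -1.00 (95% interval -2.08 to 0.08) that was -0.53, -2.48 and 0.01 within slides 1 to 3 and -0.20 without post-TBI replicate 4. Scd1 was at 0.91 (-0.31 to 2.12), and its arrays overlapped. Nsdhl, which works with Msmo1 in removing methyl groups, was at 0.42 (-0.01 to 0.86) with groups that did not overlap, and was not called. Its other 2 probes gave 0.43 and -0.18. No share of all features without overlap is given here, so statements on overlap in any comparison are description only. Cyp51 (-0.26, interval -0.75 to 0.22), Srebf2 (-0.08, -0.55 to 0.40), Fasn (-0.14, -0.73 to 0.45) and Elovl6 (0.03, -0.63 to 0.69) had intervals that include 0.

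The third and the fourth comparison set each brain population against post-TBI blood monocytes, and both use the same 3 blood arrays, so their values stand side by side and their likeness is no result. Against post-TBI blood, 12 of the 29 genes (41.4%) differed in Arg1+ cells, 5 higher and 7 lower, beside 39.9% of all features (19.9% higher, 20% lower). In Arg1- cells 6 of 29 (20.7%) differed, 4 higher and 2 lower, beside 33.4% of all features (17% higher, 16.4% lower). The share of called members in Arg1+ cells was thus near that of all features. The median difference of the 29 genes was -0.10 in Arg1+ and 0.26 in Arg1- cells, beside -0.03 and -0.02 over all features. Cell source, tissue digestion and the sort differ between brain and blood together with these values and cannot be told apart from them.

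Fads1, the desaturase that makes arachidonic acid from its precursor, differed most among the members. It read -1.25, -0.33, -0.76 and -0.56 in Arg1+ cells, -0.48, -0.06, 0.19 and -0.41 in Arg1- cells, -2.58, -3.34 and -3.58 in post-TBI blood and -3.60, -3.29 and -3.44 in normal blood. All 8 brain arrays lay above all 6 blood arrays. Fads1 was well above background on all 3 post-TBI and on 2 of 3 normal blood arrays. Its mean level was -3.17 after TBI and -3.44 in normal blood, so the size of its difference rests on dim blood values. The difference from post-TBI blood was 2.44 ± 0.29 (SE; adjusted p = 8.01e-06) in Arg1+ and 2.98 ± 0.29 (SE; adjusted p = 1.87e-06) in Arg1- cells, 5.44-fold and 7.88-fold higher. Within slides 1 to 3 it was 2.09, 2.83 and 2.01 in Arg1+ and 2.94, 3.1 and 2.51 in Arg1- cells, and after normexp correction 1.32 and 1.68. Fads2, which acts earlier on the same chain, was at 0.20 and 0.51, and neither was called. With slide as a block the Arg1- difference of Fads2 was 0.69 and was called (adjusted p = 0.00739), with 0.53, 0.77 and 0.68 within slides 1 to 3.

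Scd2, a stearoyl desaturase, read 1.04, 1.33, 0.87 and 1.13 in Arg1+ cells, 0.21, 1.03, 0.95 and 0.50 in Arg1- cells, 0.25, 0.33 and -1.56 in post-TBI blood and -0.09, 0.29 and -0.28 in normal blood. Post-TBI replicate 4 is far below the rest. The difference was 1.42 (adjusted p = 0.00617) in Arg1+ cells, and 0.80 (adjusted p = 0.0152) without that array. In Arg1- cells it was 1.00 (adjusted p = 0.0485) with overlapping arrays, and 0.38 (adjusted p = 0.259) without it. The Arg1- call was also lost in 6 of 11 other settings. Fits without any 1 of Arg1- replicates 2, 3 and 4, the 4 Arg1+ arrays or the 3 normal blood arrays lost it too. Within slides the Scd2 difference was 0.71, 2.43 and 0.88 in Arg1+ and 0.17, 1.77 and 0.78 in Arg1- cells. Scd1, its close relative, read -4.06, -1.93, -3.17 and -1.43 in Arg1+ cells and -1.79, -0.78 and -1.07 in post-TBI blood, which overlap. It was above background on 2 of 4 Arg1+ arrays. The difference of -1.43 had an adjusted p of 0.0439, was -3.29, -2.10 and 0.36 within slides 1 to 3, and lost its call in 7 of 14 fits without 1 array (Arg1- replicates 2 and 3, Arg1+ replicates 1 and 3, normal blood replicate 4 and post-TBI blood replicates 3 and 4; adjusted p up to 0.154, and -1.36 with an adjusted p of 0.105 without post-TBI replicate 4) and in 5 of 11 other settings. In Arg1- cells, at -2.92, -2.16, -2.03 and -1.74, Scd1 was not called.

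Fdft1, the first enzyme committed to sterols, was higher in both brain populations. It read 3.83, 4.09, 4.20 and 3.93 in Arg1+ cells, 3.85, 3.57, 3.60 and 3.78 in Arg1- cells, 3.34, 3.25 and 2.52 in post-TBI blood and 3.1, 3.24 and 3.49 in normal blood. The difference was 0.98 (adjusted p = 0.000838) and 0.66 (adjusted p = 0.015), and without post-TBI replicate 4 it was 0.72 (adjusted p = 0.00213) and 0.41 (adjusted p = 0.0621), so the Arg1- call rests on that array. It was also lost in 2 of 11 other settings, normexp correction (adjusted p = 0.0596) and a fit on only the 2 groups compared. The second Fdft1 probe gave 0.10 in Arg1+ cells. Mvk, mevalonate kinase, read -0.20, -0.54, 0.01 and -0.16 in Arg1+ cells, -0.61, -0.36, -0.24 and -0.09 in Arg1- cells, and -0.92, -0.94 and -1.44 in post-TBI blood. It was higher by 0.88 (adjusted p = 0.00307) and 0.77 (adjusted p = 0.00887), and by 0.71 and 0.60 without replicate 4. Within slides 1 to 3 Mvk differed by 0.74, 1.45 and 0.76 in Arg1+ cells and by 0.85, 0.83 and 0.56 in Arg1- cells.

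**Figure D4:**
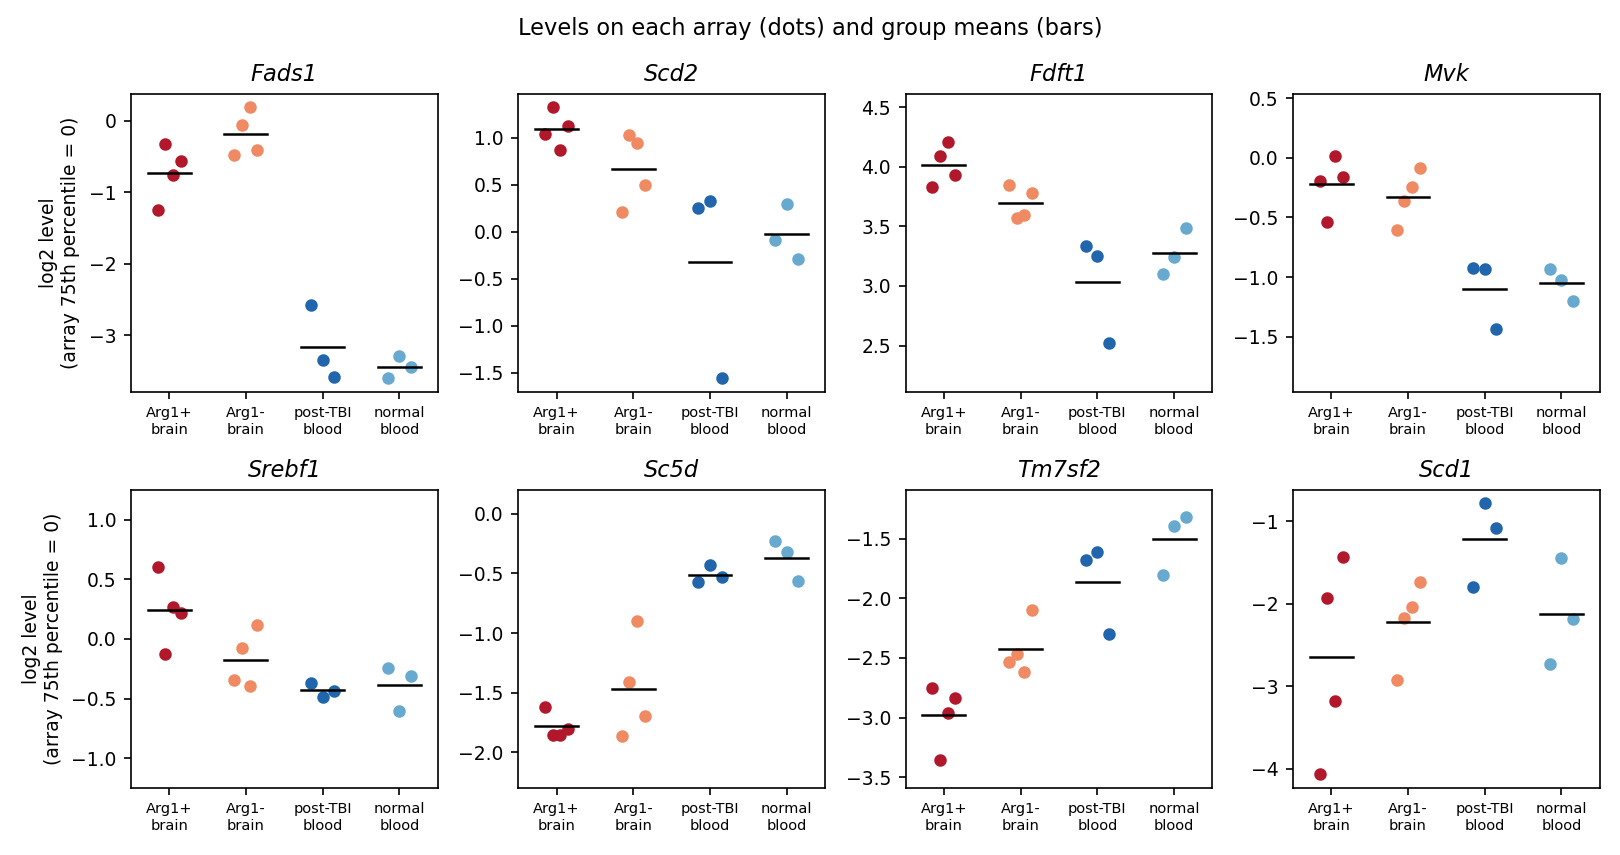
Log2 level on each array (dots) and group mean (bars) of Fads1, Scd2, Fdft1, Mvk, Srebf1, Sc5d, Tm7sf2 and Scd1 in the 4 groups. For Fads1, Fdft1 and Mvk every brain dot lies above every post-TBI blood dot, for Sc5d every brain dot lies below, and the lowest post-TBI blood dot of Scd2, at -1.56, is replicate 4.

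Of the late sterol enzymes, Cyp51, Tm7sf2, Msmo1 and Sc5d were lower than blood in Arg1+ cells, and the last 2 in Arg1- cells as well. Sc5d, the lathosterol desaturase, read -1.62, -1.85, -1.85 and -1.80 in Arg1+ cells, -1.86, -1.41, -0.90 and -1.70 in Arg1- cells, -0.57, -0.43 and -0.53 in post-TBI blood and -0.23, -0.32 and -0.56 in normal blood. Its difference from post-TBI blood was -1.27 (adjusted p = 0.000362) and -0.96 (adjusted p = 0.00425), with -1.19, -1.32 and -1.23 within slides in Arg1+ and -1.27, -1.33 and -0.84 in Arg1- cells. Msmo1, whose brain values are given above, read 1.43, 1.06 and 1.06 in post-TBI and 1.30, 1.18 and 0.87 in normal blood. It was lower by -1.35 (adjusted p = 9.86e-05) in Arg1+ cells and by -0.66 (adjusted p = 0.0219) in Arg1- cells, and the second call was lost without Arg1- replicate 2 or 4 or post-TBI replicate 1 (adjusted p up to 0.0842). Tm7sf2 read -2.75, -3.36, -2.96 and -2.84 in Arg1+ cells, -2.53, -2.47, -2.61 and -2.10 in Arg1- cells, -1.68, -1.61 and -2.30 in post-TBI blood and -1.80, -1.40 and -1.32 in normal blood. The difference of -1.11 in Arg1+ cells had an adjusted p of 0.00234 and fell to -0.29 (adjusted p = 0.301) after normexp correction. In Arg1- cells it was -0.56, which was not called (adjusted p = 0.0988), and -0.78 (adjusted p = 0.0309) without post-TBI replicate 4.

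The 4 genes that separated the brain populations differed from blood as follows. They were picked on the same brain arrays, so these differences are no separate support for the 4 calls. Cyp51 was at -1.74 (adjusted p = 1.22e-05) in Arg1+ and -0.04 (interval -0.50 to 0.42) in Arg1- cells, and Srebf2 at -0.96 (adjusted p = 0.00174) and 0.08 (interval -0.37 to 0.52). Within slides 1 to 3 the Arg1+ values were -1.88, -1.65 and -2.06 for Cyp51 and -0.84, -1.33 and -1.05 for Srebf2. Elovl6 was at -1.48 (adjusted p = 0.000816) and -0.44, and after normexp correction the first was -0.50 (adjusted p = 0.0276). Fasn was called against blood in neither, at -0.32 in Arg1+ and 0.63 in Arg1- cells (adjusted p = 0.0759), although all Arg1- arrays lay above the post-TBI ones. Of the regulators, Srebf1 exceeded blood in Arg1+ cells by 0.67 (adjusted p = 0.0136), with post-TBI arrays at -0.37, -0.49 and -0.43 and normal arrays at -0.25, -0.60 and -0.31, and it was at 0.26 in Arg1- cells. Scap (0.09, 0.16 and 0.32 after TBI; 0.14, 0.20 and 0.85 in normal blood), Insig1 (1.55, 1.63 and 1.94; 1.89, 1.39 and 2.03) and Insig2 (-1.27, -1.35 and -2.37; -1.33, -1.43 and -1.88) were called in neither. The remaining 12 members, among them Hmgcs1, Sqle, Lss and Dhcr7, were called against blood in neither population, with differences from -0.47 to 0.69. For some of the uncalled members that depended on the arrays and settings used. Without post-TBI replicate 4, 3 were called lower in Arg1+ cells: Stard4 moved from -0.43 to -1.23 (adjusted p = 0.00617), Fdps from -0.44 to -0.83 (adjusted p = 0.0276) and Mvd from -0.41 to -0.57 (adjusted p = 0.0206). In Arg1- cells Mvd moved from -0.47 to -0.62 (adjusted p = 0.016), and it was also called when slide was a block (-0.44, adjusted p = 0.0461) and on the authors' deposited log2 values (-0.49, adjusted p = 0.0394). Within slides 1 to 3 the Arg1+ differences were -1.05, 0.88 and -1.27 for Stard4, -0.69, 0.23 and -1.15 for Fdps and -0.43, -0.10 and -0.50 for Mvd. Without post-TBI replicate 1, Fdps (0.93, adjusted p = 0.0186) and Fasn (0.84, adjusted p = 0.0316) were called higher in Arg1- cells. Fasn was called there without Arg1+ replicate 1 as well, Pmvk without Arg1- replicate 1 (0.87, adjusted p = 0.0363), and Insig1 on the mean of its probes (0.50, adjusted p = 0.0289).

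**Figure D5:**
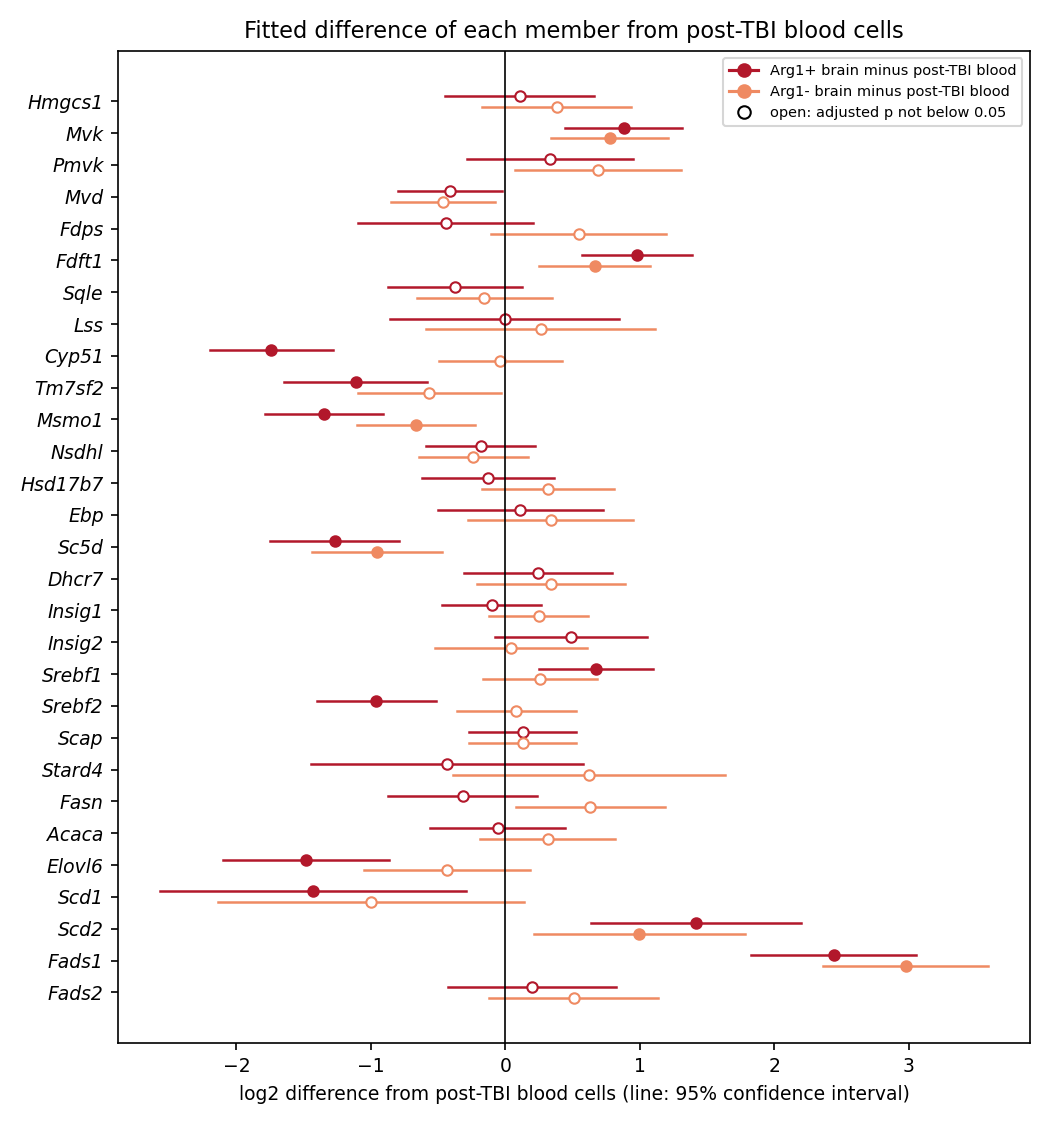
Fitted log2 difference of each of the 29 genes from post-TBI blood cells, for Arg1+ and Arg1- brain cells, with 95% confidence intervals and filled points where the adjusted p was below 0.05. Fads1 stands at 2.44 and 2.98, and Cyp51 at -1.74 in Arg1+ and -0.04 in Arg1- cells.

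Other genes of the pathways also differed from blood. Lbr was lower by -2.72 (adjusted p = 1.27e-07) in Arg1+ and by -1.84 (adjusted p = 1.13e-05) in Arg1- cells. The 25 further fatty acid genes split into 10 higher, 7 lower and 8 uncalled ones in Arg1+ cells, and into 5, 7 and 13 in Arg1- cells. Hacd1, a dehydratase of elongation, was higher by 2.56 and 1.83 in Arg1+ and Arg1- cells. Mlxipl, a sugar-sensing activator of lipid synthesis, was not well above background on any post-TBI array and was at least 4.53-fold and 4.32-fold higher. Acss2 was lower, at -2.48 and -1.43, of which the first depends on the floor as above. The 13 sterol excess and handling genes gave 10 higher and 1 lower call in Arg1+ cells (median 1.01) and 8 and 1 in Arg1- cells (median 0.61). Abca1 was at 4.87 and 3.76, Nceh1, which frees stored cholesterol, at 3.20 and 2.92, Npc1, which exports it from lysosomes, at 2.94 and 2.56, and Cyp27a1 at -3.39 and -2.37. Lymphocyte markers were lower in both brain populations, 4 of 4 for B cells and 3 of 3 tested for T cells. The summed level of 4 B cell markers was 3.97 to 4.77 in post-TBI blood, 0.672 to 1.01 in Arg1+ and 0.83 to 1.2 in Arg1- cells, and that of 4 T cell markers 0.913 to 0.998, 0.222 to 0.27 and 0.264 to 0.544. Lck, a T cell kinase, was above background on no brain array of either group, and Ms4a1, a B cell surface protein, on none either. Of 7 microglia markers, 4 were higher and 1 lower than blood in each population, with a summed level over 6 of them of 30.0 to 50.7 in Arg1+, 21.6 to 33.3 in Arg1- and 9.34 to 11.2 in post-TBI blood cells. Of 8 neutrophil markers, 7 were higher in Arg1- and 1 in Arg1+ cells, with a summed level over the same 7 of 0.972 to 2.7 in post-TBI blood. Of 5 dendritic cell markers tested, 4 were lower in Arg1+ cells, while in Arg1- cells 1 was higher and 0 were lower, with a summed level of 1.66 to 1.82 in post-TBI blood. Of 4 natural killer cell markers, 3 were lower in Arg1+ and 1 in Arg1- cells, with a summed level of 0.241 to 0.306 in Arg1+, 0.764 to 2.07 in Arg1- and 0.597 to 2.13 in post-TBI blood cells, and Gzma, a granzyme, was above background on no brain array. In Arg1+ and Arg1- cells, 3 and 2 of 4 endothelium markers and 3 and 2 of 5 neuron markers were higher. Of 4 astrocyte markers tested, 3 and 0 were higher. None of these markers was called lower. Their summed levels in Arg1+, Arg1- and post-TBI blood cells were 3.61 to 5.34, 2.62 to 3.84 and 2.01 to 4.51 for endothelium, 1.51 to 3.09, 1.03 to 2.09 and 1.02 to 1.25 for neurons and 0.95 to 1.73, 0.708 to 1.35 and 0.675 to 1.15 for astrocytes. Snap25, a protein of synaptic release, was above background on no post-TBI blood array and was at least 9.01-fold higher in Arg1+ and 5.03-fold in Arg1- cells. The 5 oligodendrocyte markers tested gave 2 higher calls and 1 lower call in Arg1+ cells, and 1 of each in Arg1- cells. The summed level of 6 oligodendrocyte markers was lower in brain than in blood. It was 7.31 to 8.41 in Arg1+, 6.78 to 8.58 in Arg1- and 22.7 to 31.1 in post-TBI blood cells. The 5 proliferation markers tested gave 1 of each in Arg1+ cells, and 3 higher calls in Arg1- cells. The part of these cells in the differences from blood was not tested.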

How the data were processed

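Per the file headers, the deposited scanner files come from Feature Extraction 10.7.3.1 and give a background-subtracted intensity for each spot with 0 or 1 flags and other values for it. The authors also deposited a table of log2 values (median 6.16 to 6.19 per array), which follow the rank of the median spot intensity within each array. Its scaling is not given in the sources used here. limma is named, without a step, in the submitters' processing notes.

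Each array's processed signal was divided by its 75th percentile over non-control probes, ratios under 0.05 were raised to 0.05, and log2 was taken. Spots marked as outliers were left out. A probe was kept with at least 2 usable arrays in every group and a signal well above background on at least 3 of the 14 arrays, which 464 and then 13090 of 41174 probes failed. RefSeq accessions named the probes, and the brightest kept probe stood for a gene. 1 limma fit (R 4.3.3, limma 3.58.1; lmFit, eBayes with an intensity trend) over all 4 groups tested 21977 features, two-sided, with Benjamini-Hochberg adjustment over all of them and calls at an adjusted p under 0.05. The fit was tested on simulated data with known changes in 200 of 21977 features and independent normal noise on each value. Of changes of 1 log2 unit it called 40% between the brain groups and 19% between the blood groups. Against post-TBI blood it called 29% of them in Arg1+ and 27.5% in Arg1- cells. Of changes of 2 log2 units it called 88% between the brain groups and 85% between the blood groups. The highest share of false calls in any comparison was 7.1%. In the real data, deviations were correlated within slides and far more features were called against blood. These shares may therefore not carry over to the real arrays. The number of arrays limits the precision. Alternatives were normexp with an offset of 50, quantile normalization, the deposited log2 values, no or a stricter filter on dim probes, a floor of 0.01, the mean of a gene's probes, slide or replicate number as a block, no trend, a fit on the 2 groups compared, and each array left out.

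The members and lists were chosen with earlier results of these data known. Named by rule were all members, with array values for the 4 called between the brain groups, up to 6 further called ones per comparison and the regulators, and up to 4 called genes per list. Counts over the list of further sterol synthesis genes are not reported here. The promoter windows are RefSeq's. Deviations of brain arrays with the same replicate number correlated at r from -0.46 to 0.40 (4 pairs, all across slides). Pairs with other numbers, some within a slide, gave -0.53 to 0.59 (12 pairs). These few pairs cannot tell whether samples of 1 number belong together.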

Additional observations from a re-analysis of the deposited data

Results flagged for a closer look

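In 5 of 58 checks of a member's 4 arrays within a brain group, 1 array stood away from the other 3 by more than Dixon's critical ratio, and chance gives about 1 in 20. Fdps in Arg1- replicate 3 read 1.44 against 0.57 to 0.66 on the other arrays. Fasn in the same replicate read 0.24 against -0.26 to -0.18. Cyp51 in Arg1+ replicate 2 read -1.28 against -1.82 to -1.73, which is still below every Arg1- array. Hsd17b7 in Arg1+ replicate 2 read -2.33 against -1.79 to -1.74. Acaca in Arg1- replicate 1 read 1.26 against 0.91 to 0.93.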

How the results depend on the processing

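No member called in a comparison changed sign in any of the 25 other settings. In Arg1+ against Arg1- cells the 4 calls became 2 (Cyp51 and Srebf2) after normexp correction, without the filter on dim probes and with the replicate block, and ranged from 2 to 7 when 1 array was left out. The replicate block gave 12, 5 and 0 members against blood in Arg1+ cells, in Arg1- cells and between the blood groups, beside 12, 6 and 0. The median member difference between the brain groups was -0.14 after normexp correction, which also shifted the median of all features to 0.14 there and to 0.15 in Arg1+ cells against blood. Normexp called 525 features between the brain groups, beside 1108. The median after TBI in blood ranged from -0.20 to 0.01 when 1 array was left out, and turned positive (0.014) without post-TBI replicate 4. The cause of these changes was not tested. Dim probes limit Elovl6, Scd1, Stard4, Tm7sf2 and, in blood, Fads1, whose low values lie near the background.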

Other observations

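Acat2, which joins acetyl-CoA units at the entry to the mevalonate steps and could not be tested, read 4.63 on Arg1+ replicate 1 and 4.73 and 4.31 on post-TBI blood replicates 3 and 4, with its spots on the other 11 arrays set aside as outliers.

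Probes of 1 gene disagreed in sign for some members. Between the brain groups they ran from -0.37 to 0.32 for Fdft1, from -0.08 to 0.26 for Nsdhl, from -0.06 to 0.10 for Mvk and from -0.37 to 0.12 for Acaca. In Arg1+ cells against post-TBI blood, the 2 probes of Hmgcs1 gave -0.73 and 0.11 and those of Dhcr7 -0.32 and 0.24. Of these genes, Mvk and Fdft1 were called against post-TBI blood, where the kept probes of each had the same sign. Cyp51 and Srebf2, called in Arg1+ cells with probes of 1 sign, had probes of opposite sign in Arg1- cells against post-TBI blood, where neither was called (-0.11 to 0.46 and -0.07 to 0.08), and Srebf2 also between the blood groups (-0.08 to 0.06). The 3 Stard4 probes ran from -0.40 to 0.62 in Arg1- cells against post-TBI blood. Against post-TBI blood the 2 Mvk probes gave 0.88 and 1.62 in Arg1+ cells.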
